A study of Mus musculus with 10 samples.

Results

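The circadian clock genes examined here are 10 genes, Arntl, Clock, Per1, Per2, Per3, Cry1, Cry2, Nr1d1, Nr1d2 and Dbp, taken by their symbols from the 23337 genes of the deposited count tables. All 10 were found and all 10 passed the filter on low counts in each comparison. The tables come from bulk RNA-Seq of left ventricle (LV) and skeletal muscle (SkM) of 5 mice, so that 10 libraries were available. The study asked what a conserved sequence in intron 1 of Ttn, denoted E0, does for Ttn expression in striated muscle. WT mice (n = 2) were compared with E0del/+ mice (n = 3), which carry a CRISPR/Cas9 deletion of E0 on 1 Ttn allele. All mice were hybrids of C57BL/6 and 129SvEv, aged 17 weeks, and each library held 1 tissue of 1 mouse. The labels give a batch tag equal to the replicate number, so batches 1 and 2 each held a WT and an E0del/+ mouse, and batch 3 held E0del/+ mouse 3 alone. The time of day of tissue collection is not given in the sources used here. Total counts per library ran from 11010021 to 17484873.

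The clock is a feedback loop of transcription that runs in nearly every cell. ARNTL (also called BMAL1) and CLOCK bind DNA together and switch on the Per and Cry genes, whose proteins return to the nucleus and block that activity, while the nuclear receptors NR1D1 and NR1D2 (REV-ERB alpha and beta) repress Arntl. In heart and skeletal muscle the levels of these transcripts swing over the day, with Arntl high when Dbp, an output gene switched on directly by ARNTL and CLOCK, is low.

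The tissue labels were checked against marker genes before the clock genes were read. On the scale of CPM (counts scaled to a common library size) with TMM factors, called normalized CPM, 7 ventricle genes summed to between 47118 and 67339 in the LVs and to between 252 and 2536 in SkM. The 7 fast skeletal muscle genes summed to between 119328 and 157998 normalized CPM in SkM and to between 76.4 and 97.4 in 4 of the LVs. The LV of WT mouse 2 stood apart at 21932 normalized CPM, with Myh4 the highest of the 7 in CPM at 15817, and none of the 7 was at 0. On total counts, a median of 21.9% of the level of these genes in the SkM of E0del/+ mouse 3 was present in that LV (lowest 20.7%, highest 23.4% over the 7 genes). The SkM share given below uses that library of E0del/+ mouse 3, not the SkM of WT mouse 2. In that LV 5 adipocyte genes summed to 296 normalized CPM, against 96.4 to 184 in the other LVs. They summed to 39.9 in the SkM of WT mouse 2 and to 1533 in that of E0del/+ mouse 3. Where the muscle transcripts came from was not tested. Xist, which is transcribed from the inactive X chromosome, was at 405, 471 and 570 normalized CPM in the LVs of WT mouse 1 and E0del/+ mice 1 and 2, and at 3.08 and 4.10 in those of WT mouse 2 and E0del/+ mouse 3. The Y-linked gene Ddx3y was at 97.8 and 91.4 normalized CPM in the LVs of the latter mice, so WT mouse 2 and E0del/+ mouse 3 carried a Y chromosome. The SkM of WT mouse 1 also stood apart, since it held Ddx3y at 13.9 normalized CPM beside Xist at 442, and on total counts its Y-linked genes were at a median of 13.2% of the level in the Y-bearing SkM libraries. All 10 libraries were kept in the tests, and some values are also given without one or both of these.

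Levels of the 10 clock genes were compared with each other as the deposited RPKM, which divides by transcript length, and neighbours in the order are called close where their means differed by less than the larger SD. In the LVs, Nr1d1 had the highest mean at 119.7 ± 32.0 RPKM (SD, n = 5). Dbp followed at 61.0 ± 16.9 RPKM and was close to Nr1d2 at 48.1 ± 4.29. Per1 stood at 29.5 ± 5.16 RPKM in the LVs, Per3 at 17.03 ± 4.09 close to Cry2 at 14.6 ± 1.06, and Clock at 9.35 ± 0.804 close to Per2 at 8.57 ± 1.69. Arntl at 2.70 ± 0.976 RPKM and Cry1 at 2.60 ± 0.437 were lowest in the LVs and close to each other. Thus the repressor of Arntl was the most abundant of the 10 transcripts per length and Arntl among the least abundant. In SkM, Nr1d1 again led at 126.8 ± 26.1 RPKM (SD, n = 5), followed by Nr1d2 at 41.3 ± 5.21 and Dbp at 40.9 ± 4.32, which were close. Per1 stood at 17.003 ± 3.98 RPKM in SkM, Cry2 at 12.9 ± 2.16 close to Per3 at 10.9 ± 1.65, and Clock at 7.76 ± 2.25. The lowest means in SkM were those of Cry1 at 4.23 ± 0.469 RPKM, Arntl at 4.06 ± 0.936 and Per2 at 3.23 ± 1.39, each close to the next.

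Arntl (NCBI gene 11865, chr7:113207465-113314126, plus strand, mm10) encodes the activator whose loss stops the clock. In the LVs it stood at 2.88 and 9.17 normalized CPM in WT mice 1 and 2, and at 8.17, 5.53 and 5.72 in E0del/+ mice 1, 2 and 3. The WT mice were the lowest and the highest of the 5, with the E0del/+ mice between them, and the value of WT mouse 1 rests on 48 counts. In SkM, Arntl stood at 10.01 and 17.9 normalized CPM in WT mice 1 and 2, and at 15.4, 20.5 and 11.6 in E0del/+ mice 1, 2 and 3. WT mouse 1 was lowest in both tissues, and every SkM library was above every LV library on this scale, while the groups overlapped in both tissues. Of the 10.7 CPM on total counts that the LV of WT mouse 2 held for Arntl, the SkM share would account for 1.98, or 18.5%. Rescaled without that share, the library was at 11.2 CPM on total counts, against 3.69 to 10.2 in the other LVs, so it was still the highest.

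Clock (NCBI gene 12753, chr5:76212177-76304548, minus strand) encodes the partner of ARNTL. Its LV levels were 54.2 and 57.8 normalized CPM in WT mice 1 and 2, and 64.3, 47.2 and 55.2 in E0del/+ mice 1, 2 and 3. E0del/+ mice had both the highest and the lowest LV. Its SkM levels were 70.7 and 50.4 normalized CPM in WT mice 1 and 2, and 91.2, 90.3 and 59.1 in E0del/+ mice 1, 2 and 3. In SkM, E0del/+ mice 1 and 2 were highest, E0del/+ mouse 3 lay between the WT mice, and the groups overlapped.

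Per1 (NCBI gene 18626, chr11:69098956-69109957, plus strand) encodes a repressor of ARNTL and CLOCK that also responds to light and to glucocorticoids. The LVs held Per1 at 137 and 109 normalized CPM in WT mice 1 and 2, and at 90.3, 90.1 and 126 in E0del/+ mice 1, 2 and 3. SkM held it at 111 and 126 normalized CPM in WT mice 1 and 2, and at 75.5, 75.4 and 115 in E0del/+ mice 1, 2 and 3. In both tissues E0del/+ mice 1 and 2 were the lowest, and E0del/+ mouse 3 lay between the WT mice, so the groups overlapped.

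Per2 (NCBI gene 18627, chr1:91415982-91459328, minus strand) encodes another repressor of the same kind. Across the LVs it was at 45.7 and 39.0 normalized CPM in WT mice 1 and 2, and at 27.7, 39.8 and 46.3 in E0del/+ mice 1, 2 and 3. Across SkM it was at 28.6 and 29.99 normalized CPM in WT mice 1 and 2, and at 13.8, 12.1 and 34.1 in E0del/+ mice 1, 2 and 3. E0del/+ mouse 3 was highest in both tissues, E0del/+ mouse 1 was low in both, and E0del/+ mouse 2 was lowest in SkM but in the middle of the LVs, so the groups overlapped. Per3 (NCBI gene 18628, chr4:151003655-151044622, minus strand), the remaining Per gene, ranged from 65.0 to 95.5 normalized CPM in the LVs and from 75.3 to 88.0 in SkM.

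Cry1 (NCBI gene 12952, chr10:85131700-85185054, minus strand) encodes the repressor that closes the loop together with the PER proteins. LV values of Cry1 were 5.58 and 8.63 normalized CPM in WT mice 1 and 2, and 5.36, 5.27 and 6.59 in E0del/+ mice 1, 2 and 3. SkM values of Cry1 were 13.2 and 17.1 normalized CPM in WT mice 1 and 2, and 17.8, 17.4 and 14.9 in E0del/+ mice 1, 2 and 3. All SkM libraries were above all LV libraries, the highest LV was that of WT mouse 2, and the groups overlapped in both tissues. The SkM share of that library would account for 25.3% of its Cry1 counts, and rescaled without the share it was at 9.63 CPM on total counts, against 6.71 to 7.85 in the other LVs. Cry2 (NCBI gene 12953, chr2:92403647-92434069, minus strand), its paralogue, ranged from 41.3 to 55.5 normalized CPM in the LVs and from 55.2 to 91.8 in SkM. An antisense gene, D930015M05Rik, overlaps 149 bp of Cry2 and had between 1.03% and 3.58% of its counts, and in these unstranded libraries reads of the shared bases cannot be told apart.

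Nr1d1 (NCBI gene 217166, chr11:98767935-98775242, minus strand) encodes a receptor that represses Arntl. Nr1d1 reached 253 and 217 normalized CPM in the LVs of WT mice 1 and 2, and 293, 297 and 177 in those of E0del/+ mice 1, 2 and 3. In SkM, Nr1d1 reached 341 and 396 normalized CPM in WT mice 1 and 2, and 436, 585 and 350 in E0del/+ mice 1, 2 and 3. E0del/+ mice 1 and 2 were highest in both tissues, E0del/+ mouse 3 was lowest in the LVs, and it lay between the WT mice in SkM. Thra, on the opposite strand, overlaps Nr1d1 by 263 bp in GENCODE and by 0 in the exons of the deposited tables. The paralogue Nr1d2 (NCBI gene 353187, chr14:18204056-18239106, minus strand) was the steadiest member in the LVs, from 168 to 196 normalized CPM, and ranged from 221 to 263 in SkM.

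Dbp (NCBI gene 13170, chr7:45705247-45710203, plus strand) encodes a transcription factor that carries the rhythm on to metabolic genes through D-box sequences. Dbp stood at 93.1 and 60.7 normalized CPM in the LVs of WT mice 1 and 2, and at 84.3, 98.3 and 65.3 in those of E0del/+ mice 1, 2 and 3. In SkM, Dbp stood at 84.6 and 99.9 normalized CPM in WT mice 1 and 2, and at 67.1, 90.9 and 92.3 in E0del/+ mice 1, 2 and 3. WT mouse 2 was lowest in the LVs and highest in SkM, and the groups overlapped in both tissues. Sphk2 lies on the opposite strand and shares 539 bp with Dbp, and its counts were between 23.9% and 48.8% of those of Dbp, so reads of the shared bases cannot be told apart here.

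**Figure D1:**
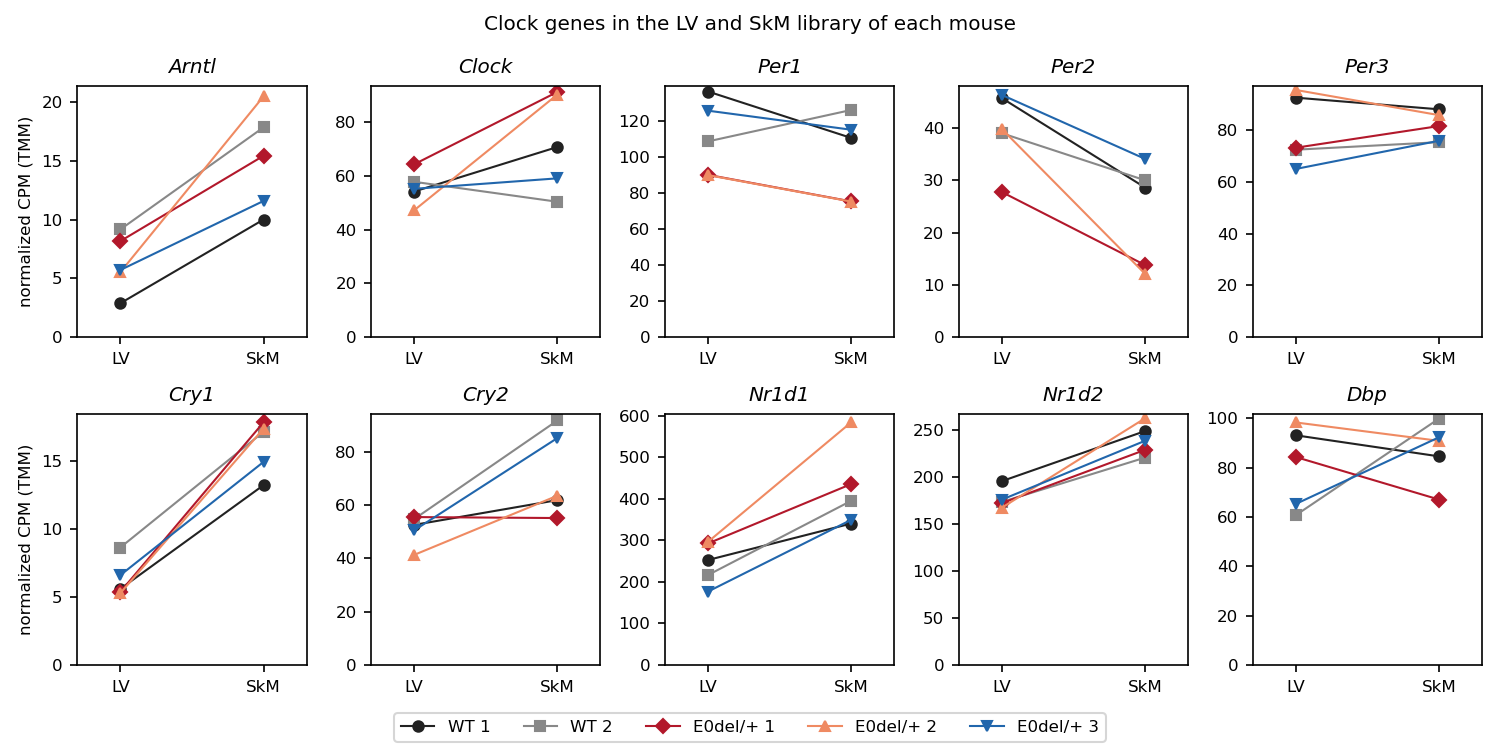
Level of each of the 10 clock genes in normalized CPM (y axis) in LV and SkM (x axis), with a line joining both tissues of 1 mouse and colours for WT and E0del/+. Arntl and Cry1 are higher in SkM than in LV in every mouse, and the WT and E0del/+ values overlap in each panel.

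Promoters were searched because the loop acts through short DNA motifs, the E-box bound by ARNTL with CLOCK and the D-box bound by DBP. Of the 10 genes, 9 matched a RefSeq promoter window (GRCm38.p6), from 250 bases before to 50 after the start site, and Per2 had no entry. The E-box searched, CACGTG, reads the same on both strands and was found in the windows of Cry1 and Per1, 60 and 166 bases before the start site. It was in 7.15% of all 32851 windows and in at least 1 window of 8.09% of 27025 genes. The other window of Per1 held no motif. The D-box searched, TTATGTAA or TTACGTAA on either strand, was found in the window of Per3 alone among the 9, 205 and 158 bases before the start site. It was in 1.06% of all windows and in those of 1.23% of genes. The windows are shown for the 3 genes in which a motif was found, with the motif in capitals, at chr11:69098699-69098998 on the plus strand for Per1, chr10:85185005-85185304 on the minus strand for Cry1 and chr4:151044616-151044915 on the minus strand for Per3.
Per1: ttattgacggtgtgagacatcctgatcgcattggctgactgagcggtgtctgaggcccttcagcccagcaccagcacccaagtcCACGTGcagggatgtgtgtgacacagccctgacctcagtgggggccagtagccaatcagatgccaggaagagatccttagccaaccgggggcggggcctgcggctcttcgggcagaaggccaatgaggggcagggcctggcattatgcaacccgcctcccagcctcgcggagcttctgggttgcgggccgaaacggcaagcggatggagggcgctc
Cry1: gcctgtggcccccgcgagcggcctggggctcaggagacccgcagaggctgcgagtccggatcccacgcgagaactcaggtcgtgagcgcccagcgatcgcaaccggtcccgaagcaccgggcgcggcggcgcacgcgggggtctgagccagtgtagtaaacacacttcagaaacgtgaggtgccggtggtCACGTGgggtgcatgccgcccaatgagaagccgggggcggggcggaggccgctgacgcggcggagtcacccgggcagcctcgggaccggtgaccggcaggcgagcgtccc
Per3: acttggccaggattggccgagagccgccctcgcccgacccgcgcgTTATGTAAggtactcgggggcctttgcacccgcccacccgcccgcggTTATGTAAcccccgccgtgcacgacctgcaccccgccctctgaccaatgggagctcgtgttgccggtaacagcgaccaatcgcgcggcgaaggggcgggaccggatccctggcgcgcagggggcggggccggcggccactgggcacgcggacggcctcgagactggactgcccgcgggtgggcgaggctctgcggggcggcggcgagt

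LV and SkM were compared to place each gene before mice were compared. SkM held more Cry1, Arntl and Nr1d1, and to a lesser degree Cry2 and Nr1d2, than LV, and less Per2, on the scale of TMM. The log2 fold change of SkM over LV was 1.28 for Cry1 (SE 0.17), 1.21 for Arntl (SE 0.33), 0.71 for Nr1d1 (SE 0.19), 0.45 for Cry2, 0.39 for Nr1d2 and −0.76 for Per2. By edgeR quasi-likelihood with Benjamini-Hochberg adjustment, adjusted p was 0.000164 for Cry1, 0.0102 for Arntl, 0.0111 for Nr1d1, 0.00935 for Nr1d2, 0.0335 for Cry2 and 0.0443 for Per2. Thus 5 of the 10 genes were called higher in SkM, where 28.5% of 14327 genes were, and 1 was called higher in LV, where 31.4% were. The remaining 4, Clock at 0.29, Dbp at 0.10, Per3 at −0.01 and Per1 at −0.16, were not called, with edgeR adjusted p between 0.161 and 0.944, and on total counts Clock and Dbp lay on the LV side. The median log2 fold change of the 10 genes was 0.34 with TMM, beside −0.04 over all genes tested, and −0.27 on total counts, beside −0.65.

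These directions depend on the scaling between tissues, because the median log2 fold change of all genes was −0.04 with TMM and −0.65 on total counts. On total counts the log2 fold change of Cry1 was 0.67 and its edgeR adjusted p was 0.00376. Arntl at 0.59 and Nr1d1 at 0.07 kept the sign and lost the call on total counts, with edgeR adjusted p of 0.109 and 0.780. Cry2 at −0.17 and Nr1d2 at −0.23 turned to the LV side on total counts, with edgeR adjusted p of 0.237 and 0.122. Per2 at −1.39, Per1 at −0.78, Per3 at −0.64 and Dbp at −0.54 were called lower in SkM on total counts, with edgeR adjusted p of 0.00300, 0.00222, 0.0135 and 0.0306. Of all genes, 12.1% were called higher in SkM on total counts and 56.5% higher in LV. The share of calls that were higher in SkM was 47.5% with TMM and 17.7% on total counts. Cry1 was called higher in SkM in 13 of 13 alternatives, Arntl in 11, Nr1d1 in 11, Nr1d2 in 10 and Cry2 in 8, and Per2 was called in 6. In bulk tissue, fewer cells of a type and less RNA per cell cannot be told apart.

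Several of these calls were lost with 1 mouse or library left out, while the log2 fold changes kept their sign. That of Per2 lay between −0.62 and −0.99 with 1 mouse left out, beside −0.76 with all 5, and at −0.99, without E0del/+ mouse 3, the edgeR adjusted p was 0.00158. That of Cry2 lay between 0.35 and 0.62 with 1 mouse left out. The edgeR adjusted p of Per2 rose to 0.0671 without E0del/+ mouse 1, 0.192 without WT mouse 1, 0.125 without E0del/+ mouse 2, 0.118 without WT mouse 2 and 0.0667 without the LV of WT mouse 2, and was 0.0536 with DESeq2 size factors. For Cry2 the edgeR adjusted p was 0.0820 without E0del/+ mouse 2, 0.171 without WT mouse 2, 0.0852 without E0del/+ mouse 3 and 0.0745 without the LV of WT mouse 2. Arntl was at 1.05 without E0del/+ mouse 2, Nr1d1 at 0.63 without WT mouse 2 and Nr1d2 at 0.41 without E0del/+ mouse 1 on the log2 scale, with edgeR adjusted p of 0.0601, 0.0782 and 0.0510. Without the LV of WT mouse 2, Arntl was at 1.74, Cry1 at 1.45 and Nr1d1 at 0.65 on the log2 scale, with edgeR adjusted p of 0.00129, 0.000218 and 0.0416. With both libraries that stood apart left out, an alternative chosen after seeing the data, Arntl was at 1.97, Cry1 at 1.59, Per2 at −0.75 and Nr1d2 at 0.35 on the log2 scale, with edgeR adjusted p of 0.000432, 0.000131, 0.125 and 0.0521.

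**Figure D2:**
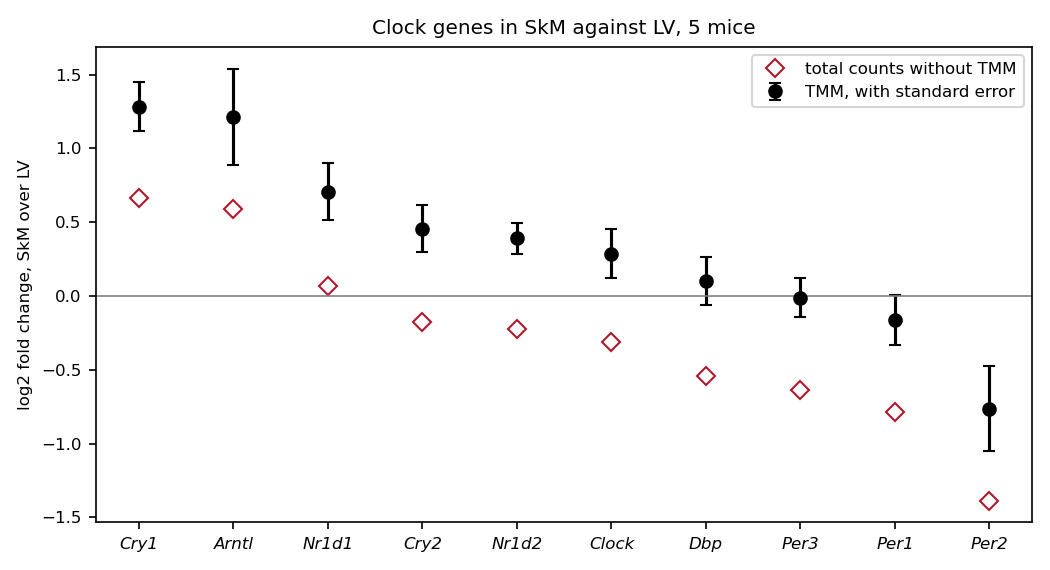
Log2 fold change of SkM over LV (y axis) for each of the 10 clock genes (x axis), with bars for the SE of the edgeR fit and diamonds for the same value on total counts. Cry1 is highest at 1.28, and Cry2, Nr1d2, Clock and Dbp change sides on total counts.

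Other genes of the clock were read from a list of 15. With TMM, 10 of the 15 were called higher in SkM and 2 higher in LV, beside 28.5% and 31.4% of all genes. On total counts 6 and 5 were, beside 12.1% and 56.5%. The 6 with the lowest p were led by Rora, a receptor that activates Arntl, at a log2 fold change of 2.25 with TMM and 1.63 on total counts. Bhlhe40 at 1.67, Nfil3 at 1.63 and Bhlhe41 at 1.39, all repressors of clock targets, were also called higher in SkM, and stayed on that side on total counts at 1.04, 1.02 and 0.76. Npas2, a relative of Clock, was called higher in LV at −2.51, and so was Timeless at −2.22, with −3.11 and −2.84 on total counts. The edgeR adjusted p of these 6 genes was at most 0.000280 with TMM, and at most 0.00124 without the LV of WT mouse 2, where Rora was at 2.36. The median of the list was 0.48 with TMM, beside −0.04 over all genes tested, and −0.16 on total counts, beside −0.65. Ciart, a gene of the list, is named Gm129 in the tables.

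The clock-controlled genes of heart and muscle were a list of 10 with a median log2 fold change of −0.05 with TMM and −0.66 on total counts. With TMM, 3 of 10 were called higher in SkM and 4 higher in LV, beside 28.5% and 31.4% of all genes, and on total counts 2 and 6 were, beside 12.1% and 56.5%. The potassium channel genes Kcnip2 and Kcnh2 were called higher in LV at log2 fold changes of −7.75 and −3.94, and Wee1, a kinase of the cell cycle, at −1.13. Myod1, the master regulator of the muscle lineage, at 7.27 and Usp2, a ubiquitin protease, at 0.94 were called higher in SkM, and both stayed on that side on total counts, Usp2 at 0.31. Myod1 was at 0 in the LVs of E0del/+ mice 2 and 3 and at 5.62 normalized CPM in that of WT mouse 2, and without the latter its log2 fold change was 9.92. Tcap, at 0.75 with all libraries, was at 0.72 without the LV of WT mouse 2 and not called, with an edgeR adjusted p of 0.0699.

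The median spread between mice was larger for the clock genes than for the expressed genes as a whole, which is a description with no test. The median coefficient of variation over the 5 mice was 18.9% for the 10 genes in the LVs, beside 16.4% for all 13283 tested genes. It was 14.3% for the 10208 tested genes with a mean of at least 5 normalized CPM. In SkM it was 22.9% for the 10 genes, 18.9% for all tested genes and 15.2% for 9694 with at least that mean. In the LVs the ratio of the highest to the lowest mouse was greatest for Arntl at 3.18 and least for Nr1d2 at 1.17. The ratio of Arntl rested on the LV of WT mouse 1, with 48 counts, and without that library it was 1.66, below Nr1d1 at 1.68. In SkM it was greatest for Per2 at 2.82, followed by Arntl at 2.05, and least for Per3 at 1.17.

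Whether both tissues of a mouse shared a clock state was described from the deviation of each gene from its tissue mean, on the log2 scale. Across the 10 genes, Pearson's r between LV and SkM of the same mouse was 0.79 in WT mouse 1, 0.16 in WT mouse 2, 0.58 in E0del/+ mouse 1, 0.19 in E0del/+ mouse 2 and 0.55 in E0del/+ mouse 3. All 5 were above 0, with a median of 0.55. Between LV and SkM of different mice, r had a median of −0.12 over 20 pairs, ran from −0.80 to 0.86, and was above 0 in 7. Deviations from a mean sum to 0 over the mice, so r above 0 for the same mouse pulls r of different mice below 0. Genes of one loop are also not independent points. For 3 of 5 LVs the SkM of the same mouse gave the highest r. The LV of E0del/+ mouse 1 was closer to the SkM of E0del/+ mouse 2 (r = 0.86), and the LV of WT mouse 2 was closer to the SkM of E0del/+ mouse 1 (r = 0.36).

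The likeness of both tissues rested in part on WT mouse 1. Without that mouse the median r of the same mouse was 0.26, and without each of the other mice it lay between 0.32 and 0.60. With both libraries that stood apart left out, a choice made after seeing the data, the median r was 0.35 for the same mouse and −0.19 for different mice. On total counts the medians were 0.55 and −0.12.

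Gene by gene, LV and SkM of a mouse lay on the same side of their tissue means in 31 of 50 cases. Per1 did so in 5 of 5 mice, with the LV of WT mouse 2 only 0.00103 above its mean, Arntl, Per3, Nr1d1 and Nr1d2 in 4, Per2 in 3, Clock, Cry1 and Cry2 in 2, and Dbp in 1. The ratio of Dbp to Arntl, which sets an output gene against its activator, was on the log2 scale 4.95, 2.71, 3.34, 4.12 and 3.48 in the LVs of WT mice 1 and 2 and E0del/+ mice 1, 2 and 3. The same ratio in SkM was 3.06, 2.47, 2.11, 2.14 and 2.98 in that order. WT mouse 1 was highest in both tissues, while the other 4 mice kept no common order. Within SkM, E0del/+ mice 1 and 2 were alike across the 10 genes (r = 0.85). Both were opposite there to E0del/+ mouse 3 (r = −0.92 and −0.96), and their r with the WT mice lay between −0.81 and −0.56. In the LVs r between E0del/+ mice 1 and 2 was 0.10, and with E0del/+ mouse 3 it was −0.57 and −0.77. Within 1 tissue, r of different mice leans below 0 by construction, since the deviations sum to 0.

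**Figure D3:**
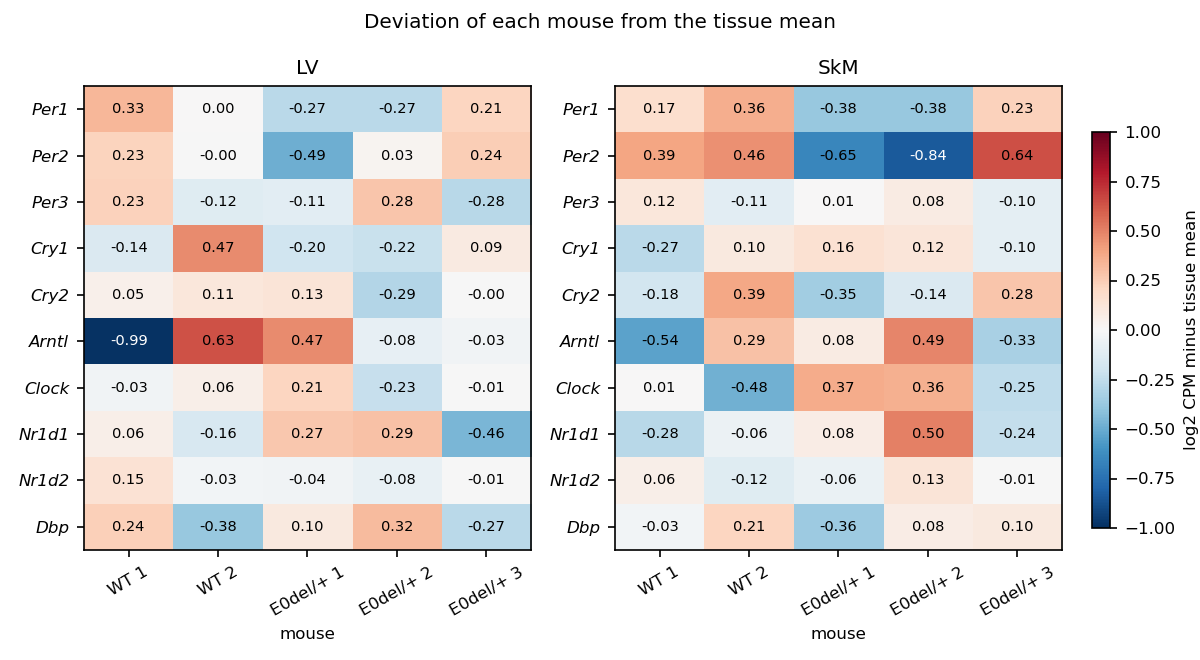
Heat maps of the deviation of each of the 10 clock genes from its tissue mean (log2 scale, colour) in LV and SkM of the 5 mice (columns). Per1 has the same sign in both tissues of every mouse, while Dbp has it in 1 mouse.

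**Figure D4:**
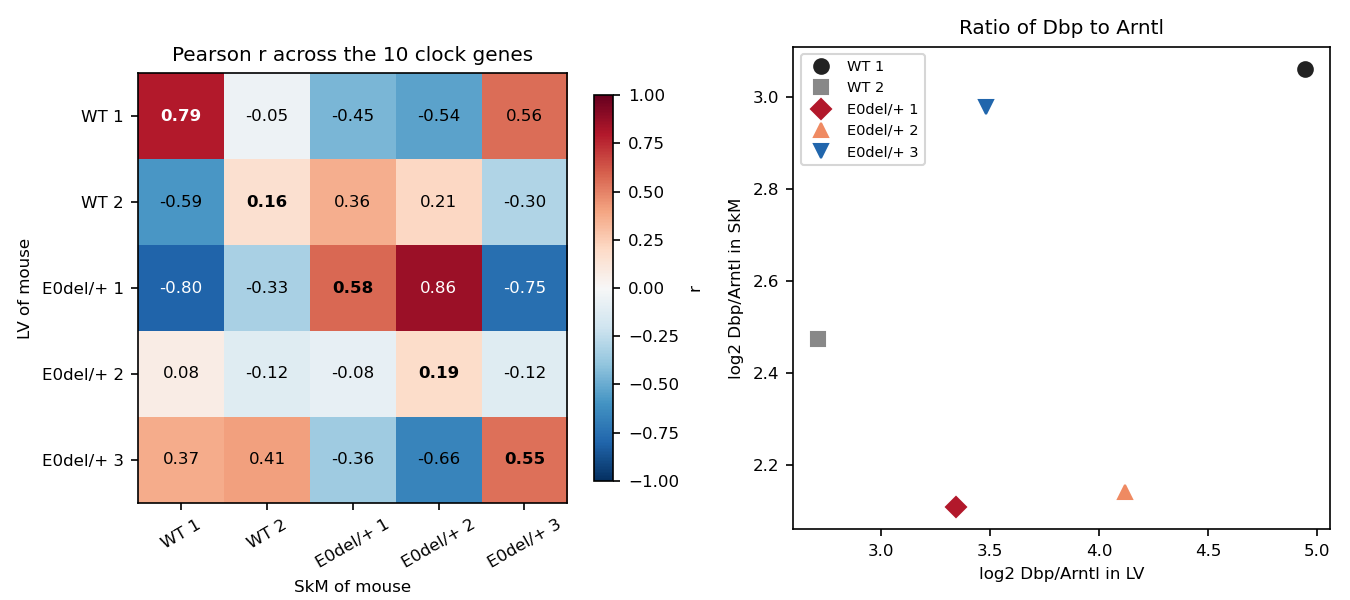
Left, Pearson's r across the 10 clock genes between each LV and each SkM library. Right, log2 ratio of Dbp to Arntl in LV (x axis) against SkM (y axis), with WT mouse 1 highest on both axes.

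A difference among mice shared by both tissues was tested, and none of the 10 genes passed the adjusted threshold. In a model of tissue and mouse, edgeR quasi-likelihood gave a p of 0.0198 for Per1, 0.0318 for Arntl and 0.0477 for Per2, with an adjusted p of 0.891 each. Among all 13283 genes, 0 passed the adjusted threshold (0%) and 702 (5.28%) had an unadjusted p under 0.05, against 3 of the 10 clock genes, and DESeq2 called 151 genes and none of the 10. Nr1d1 had an edgeR p of 0.0634, and the other 6 lay between 0.142 and 0.851. Leaving out WT mouse 1 took the edgeR p of Arntl to 0.263, and leaving out both libraries that stood apart took it to 0.0940, with Per1 at 0.0214 and Per2 at 0.0405. The clock genes at an edgeR p under 0.05 depended on single mice, and only Per1 (0.0385) was left without WT mouse 1 and only Arntl (0.0297) without E0del/+ mouse 1. Per2 was at 0.0709 without E0del/+ mouse 3, and Nr1d1 joined the 3 without WT mouse 2, with a p of 0.0425. On total counts these genes were Per1 and Nr1d1. Over all genes the share under 0.05 ran from 3.24% without WT mouse 2 to 6.79% without E0del/+ mouse 2. It was 10.1% without the LV of WT mouse 2, where Per1, Per2 and Nr1d1 were under 0.05 and Arntl was not. The genes called by edgeR were 5 without WT mouse 1 (Ddx3y, Eif2s3y, Kdm5d, Uty and Xist), 1 without E0del/+ mouse 3 (Npnt), and 2 without both libraries (Ddx3y and Eif2s3y), all named after their values were seen.

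Differences between mice of the same batch were then tested apart from those between batches. Between mice of 1 batch, edgeR gave a p of 0.00800 for Per1, 0.0278 for Arntl and 0.0296 for Per2, with an adjusted p of 0.888 each, and 3 of the 10 genes had an unadjusted p under 0.05. Over all genes 0 were called by edgeR (0%), 742 (5.59%) had an unadjusted p under 0.05, and DESeq2 called 45. With both libraries that stood apart left out, the edgeR p between mice of 1 batch was 0.00951 for Per1, 0.0436 for Arntl and 0.0396 for Per2, and edgeR called 2 genes, Ddx3y and Eif2s3y. Leaving out a mouse of batch 1 or 2 leaves this test on the pair of the other batch alone. On the batch 2 pair, Per1 alone had an edgeR p under 0.05, at 0.0336 without WT mouse 1 and 0.0401 without E0del/+ mouse 1. Of all genes, 8.54% and 8.83% did. On the batch 1 pair, without WT mouse 2 or E0del/+ mouse 2, all 3 had one, beside 1.23% and 0.759% of all genes. Without E0del/+ mouse 3, which keeps both pairs in the test, all 3 also had one, beside 4.95%. The lowest adjusted p of any clock gene over all alternatives was 0.0773, for Per1 by DESeq2. Between the 3 batches, with all libraries, none of the 10 genes had an edgeR p under 0.05, the lowest being Arntl at 0.0555 and Nr1d1 at 0.0955. With 1 mouse left out, Per1 (0.0186), Per2 (0.0484) and Nr1d1 (0.0285) did without WT mouse 2, Per2 (0.0263) without E0del/+ mouse 2, and Arntl without E0del/+ mouse 1 (0.0163) or 3 (0.0301). Nr1d1 was under an unadjusted 0.05 on total counts and by DESeq2. Over all genes 0 were called between batches by edgeR (0%), 601 (4.52%) had an unadjusted p under 0.05, and DESeq2 called 17. That share ran from 1.98% without E0del/+ mouse 1 to 10.7% without E0del/+ mouse 2, with 2.01% without WT mouse 1, and was 12.6% without the LV of WT mouse 2. Without WT mouse 1, edgeR called 3 genes in each of these tests, Ddx3y, Eif2s3y and Kdm5d. Batch 3 held a single mouse, which was E0del/+ and Y-bearing, so there batch, mouse, genotype and sex cannot be told apart. Leaving out a WT mouse also left its batch with an E0del/+ mouse alone. Within batches 1 and 2 genotype and mouse cannot be told apart.

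Slow muscle fibres differed among the SkM libraries alongside these genes. The 5 slow skeletal muscle genes summed to 1269 and 177 normalized CPM in the SkM of WT mice 1 and 2, and to 1855, 2785 and 322 in that of E0del/+ mice 1, 2 and 3. Myh7, the slow myosin heavy chain, was the highest in CPM at 917, 104, 1406, 2080 and 204 normalized CPM in the same order, and none of the 5 was at 0. The list was highest in E0del/+ mice 1 and 2, whose SkM had the lowest Per1 and Per2 and the highest Clock, and its part in these values was not tested. The 5 adipocyte genes summed to 1270, 39.9, 362, 220 and 1533 normalized CPM in the same order, led in CPM by Cfd in all but WT mouse 2, where Fabp4 led. The Y-bearing mice were WT mouse 2 and E0del/+ mouse 3, which differ in genotype and batch, and their SkM libraries were low in Clock and high in Per2. The same libraries were lowest for the slow skeletal muscle genes, at 177 and 322 normalized CPM, so slow fibres and sex cannot be told apart here.

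E0del/+ was compared with WT to ask whether the clock genes changed with the loss of E0. None of the 10 genes was called in the LVs or in SkM, and in neither tissue did the groups separate for any of them. Ttn itself was at 6222 and 8001 normalized CPM in the LVs of WT mice 1 and 2, and at 6187, 3935 and 5541 in those of E0del/+ mice 1, 2 and 3. Its log2 fold change in the LVs was −0.45 (SE 0.27) with an edgeR p of 0.133, and in SkM it was −0.17 (SE 0.24). Ttn was at −0.25 (SE 0.39) in the LVs, with an edgeR p of 0.535, without the LV of WT mouse 2. The SkM share of that library would account for 31.8% of its Ttn counts, and rescaled without the share it was at 8158 CPM on total counts, against 5560 to 7959 in the other LVs. E0del/+ over WT for Ttn in the LVs was 0.994 in batch 1 and 0.492 in batch 2, the batch of that library, and in SkM 0.879 and 1.13.

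In the LVs the log2 fold changes of the 10 genes ran from −0.30 for Cry1 (SE 0.27) to 0.12 for Nr1d1 (SE 0.26), with 0.12 for Arntl (SE 0.45), and the edgeR adjusted p was at least 0.997. Per1 was at −0.26 (SE 0.21) with an edgeR p of 0.247, Per2 at −0.16 and Dbp at 0.11. By edgeR, 0 of 13420 genes (0%) passed the adjusted threshold, 564 (4.20%) had an unadjusted p under 0.05, with none of the 10 clock genes at either. DESeq2 called 12 genes and gave no adjusted p for 7 of the 10 clock genes, and the other 3 (Per1, Nr1d1 and Nr1d2) were not called. The groups did not overlap for 16.4% of genes and for 0 of the 10. The median over the 10 genes was −0.09, beside −0.01 over all genes tested. Arntl took its value from single libraries, since its log2 fold change was −0.49 without the LV of WT mouse 1, 1.18 without the LV of WT mouse 2 (edgeR p of 0.00967, adjusted p of 1.00) and −0.09 without the LV of E0del/+ mouse 1. Arntl was thus 1 of 104 genes (0.749%) at an unadjusted p under 0.05 without the LV of WT mouse 2, while without that of WT mouse 1 there were 1630 (11.6%) and none of the 10. Without the LVs of E0del/+ mice 1, 2 and 3 the share was 2.29%, 2.68% and 4.73%, with none of the 10. Other signs also turned, to 0.04 for Cry1 and −0.17 for Dbp without the LV of WT mouse 2, and to 0.03 for Per2 without that of E0del/+ mouse 1. Without the LV of WT mouse 1, edgeR called 578 genes, and the lone WT library was then assumed to vary like the others. With the replicate as a block, edgeR called 5 genes in the LVs (Ddx3y, Eif2s3y, Kdm5d, Uty and Mstn), and Arntl was at 0.37, Per2 at −0.34 and Per1 at −0.43.

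In SkM the log2 fold changes ran from −0.56 for Per2 (SE 0.47) and −0.42 for Per1 (SE 0.22) to 0.30 for Nr1d1 (SE 0.23) and 0.39 for Clock (SE 0.27). The edgeR p was 0.107 for Per1, 0.204 for Clock, 0.240 for Nr1d1 and 0.277 for Per2, and the adjusted p was 1.00 for each. By edgeR, 0 of 13154 genes (0%) passed the adjusted threshold, 114 (0.867%) had an unadjusted p under 0.05, and DESeq2 called 0, while 0 of the 10 clock genes met either. The unadjusted count was 1596 (11.8%) without the SkM of WT mouse 1, which stood apart, 294 (2.15%) without that of WT mouse 2, and 62 (0.492%), 16 (0.122%) and 291 (2.23%) without those of E0del/+ mice 1, 2 and 3. In these, Per1 and Per2 were under 0.05 without the SkM of E0del/+ mouse 3, and otherwise none of the 10. The groups did not overlap for 11.5% of genes and for 0 of the 10. The median over the 10 genes was 0.01, beside −0.01 over all genes tested.

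Within batches the SkM differences were larger. Such a comparison rests on the mice of batches 1 and 2, since E0del/+ mouse 3 was alone in batch 3. The slow skeletal muscle genes also differed in these pairs, at 1269 in WT and 1855 normalized CPM in E0del/+ in batch 1. In batch 2 they were at 177 and 2785, and there only the WT mouse carried a Y chromosome. The part of slow fibres in the SkM differences was not tested. With the replicate as a block, edgeR gave Per2 a log2 fold change of −1.19 (p of 0.000843, adjusted p of 0.490) and Per1 −0.65 (p of 0.00687), Clock 0.60 (p of 0.0209) and Nr1d1 0.45 (p of 0.0450). These 4 of the 10 had an unadjusted p under 0.05, beside 596 (4.53%) of 13154 genes, and 1 gene of the whole table was called, Eif2s3y. In SkM, E0del/+ over WT was 0.482 in batch 1 and 0.403 in batch 2 for Per2, and in the LVs it was 0.607 and 1.02. For Per1 it was 0.681 and 0.597 in SkM, and 0.661 and 0.828 in the LVs. For Nr1d1 it was 1.28 and 1.48 in SkM, and 1.16 and 1.37 in the LVs. Per1 was thus lower in E0del/+ in 4 of 4 pairs and Nr1d1 higher in 4 of 4. These 4 are 2 pairs of mice, each read in LV and in SkM. They include both libraries that stood apart, the SkM of WT mouse 1 in batch 1 and the LV of WT mouse 2 in batch 2. Of the clock genes, 2 of 10 had one direction throughout, against 12.0% of 13283 genes. E0del/+ mouse 3 has no WT partner, so leaving out its SkM draws on the same mice as the block and is not a separate result. Its SkM held Per2 at 34.1 and Per1 at 115 normalized CPM, beside 28.6 and 29.99, and 111 and 126, in WT mice 1 and 2. Without that library the log2 fold change was −1.22 for Per2 (edgeR p of 0.00147) and −0.69 for Per1 (edgeR p of 0.00492). Both had an edgeR adjusted p of 0.998. Without the SkM of E0del/+ mouse 2, Per2 was at −0.29 and Nr1d1 at 0.11, and without that of E0del/+ mouse 1, Per2 was at −0.36. Clock was at 0.71 without the SkM of WT mouse 1 and at 0.13 without that of WT mouse 2, and Arntl turned to −0.14 without the former and Cry2 to 0.08 without the latter. With sex as a term, chosen after seeing the data, the SkM log2 fold change was −0.39 for Per1 (edgeR p of 0.0443), −0.60 for Per2 and 0.29 for Clock (edgeR p of 0.0316). By edgeR 0 genes were then called in either tissue, with 489 (3.64%) in the LVs and 306 (2.33%) in SkM at an unadjusted p under 0.05, and 0 and 2 of the clock genes.

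The difference between the tissues was tested as an interaction of genotype and tissue. None of the 10 genes was called, with edgeR adjusted p of 1.00 for each. The interaction was −0.43 for Per2, 0.40 for Cry1 and 0.37 for Clock on the log2 scale, with edgeR p of 0.468, 0.247 and 0.296. Of 14327 genes, edgeR called 0 (0%), 477 (3.33%) had an unadjusted p under 0.05, none of them a clock gene. DESeq2 called 17 genes and gave no adjusted p for 8 of the 10 clock genes, and the other 2 (Nr1d1 and Nr1d2) were not called. Without WT mouse 1, edgeR called 174 genes and none of the 10, and 12.5% of genes were at an unadjusted p under 0.05. Without WT mouse 2 and E0del/+ mice 1 and 2 that share was 1.43%, 1.92% and 1.17%, and without the LV of WT mouse 2 it was 0.871%, with none of the 10. With both libraries that stood apart left out, the interaction was −0.33 for Per2, −0.08 for Cry1 and −1.35 for Arntl, none of them called by edgeR. Arntl then had an edgeR p of 0.0327, where 1359 genes (9.23%) were under 0.05, and Per2 was at −0.89 with a p of 0.0210 without E0del/+ mouse 3, where 3.23% were.

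**Figure D5:**
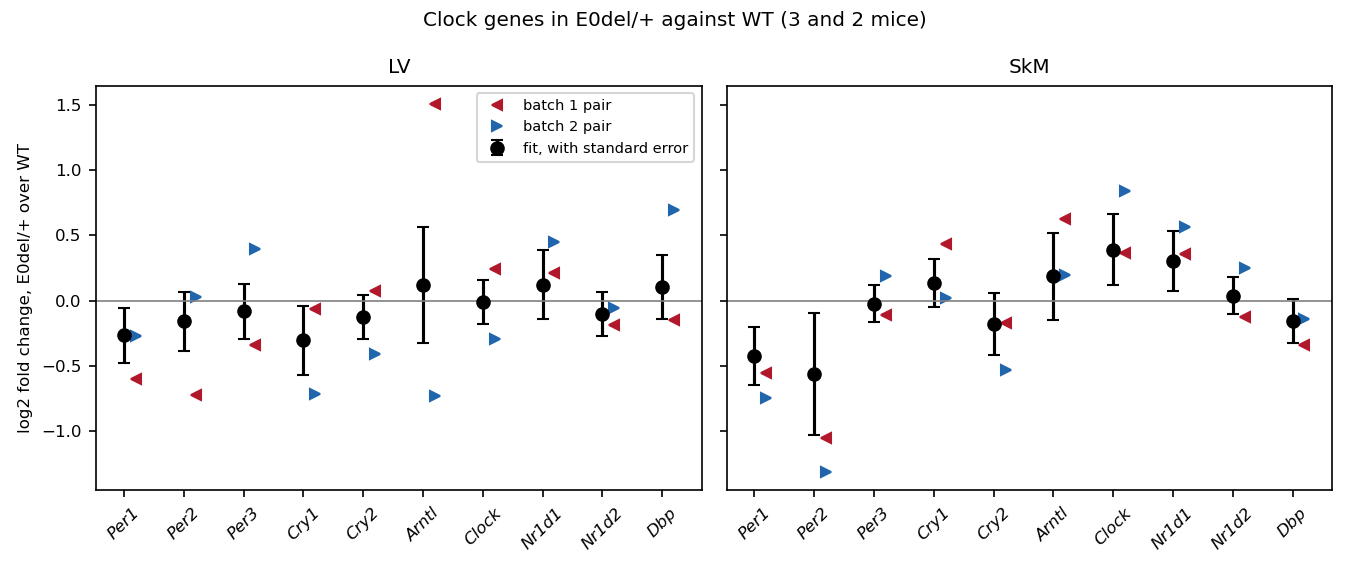
Log2 fold change of E0del/+ over WT (y axis) for each of the 10 clock genes (x axis) in LV and SkM, with bars for the SE of the edgeR fit and separate marks for the log2 ratios within batches 1 and 2. Per1 is below 0 and Nr1d1 above 0 in each batch and tissue, and no gene passed the adjusted threshold.

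Other genes of the clock and its targets were also compared between E0del/+ and WT. By edgeR, 0 of the 15 other clock genes were called in the LVs or in SkM. At an unadjusted p under 0.05 stood Npas2 (0.66) and Rora (−0.79) in the LVs, 2 of the 15, beside 4.20% of all genes. In SkM none did, beside 0.867% of all genes. Without the LV of WT mouse 2, Npas2 was at 0.55 (edgeR p of 0.106) and Rora at −0.55 (p of 0.0712), and Hlf at −0.46 had a p of 0.0495. The median of the list was −0.18 in the LVs and −0.03 in SkM, beside −0.01 over all genes tested in each tissue. The 3 with the highest mean CPM over the 10 libraries, Tef, Bhlhe40 and Csnk1d, had log2 fold changes of −0.12, −0.19 and −0.04 in the LVs and −0.03, 0.01 and −0.02 in SkM. Of the clock-controlled genes, 0 of 9 tested were called in each tissue and none had an unadjusted p under 0.05. Tcap and Nampt, among those of highest mean CPM, had log2 fold changes of 0.30 and −0.16 in the LVs and −0.20 and 0.03 in SkM. The medians of the clock-controlled genes were −0.02 in the LVs and −0.12 in SkM on the log2 scale.

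Per1 also belongs to the genes that glucocorticoids induce, and lists of genes that respond to glucocorticoids, temperature and acute stimuli were counted beside it. By edgeR, 0 of 9 glucocorticoid-responsive genes were called with genotype in either tissue. Tsc22d3 (−0.46), Mt1 (0.52) and Mt2 (0.95), 3 of the 9, had an unadjusted p under 0.05 in the LVs, beside 4.20% of all genes. In SkM Fkbp5 (0.75), 1 of the 9, did, beside 0.867% of all genes. Without the LV of WT mouse 2 these 3 were at −0.29, 0.35 and 0.69, with an edgeR p of 0.264, 0.192 and 0.136, and without the SkM of WT mouse 1 Fkbp5 was at 0.50 with an edgeR p of 0.166. Klf9, with the highest mean CPM of the list over the 10 libraries, was at −0.17 in the LVs and −0.0030 in SkM. Tsc22d3, a direct target of the glucocorticoid receptor that was singled out after its values were seen, was at 267 and 406 normalized CPM in the SkM of WT mice 1 and 2, and at 212, 169 and 327 in that of E0del/+ mice 1, 2 and 3. In SkM, E0del/+ mice 1 and 2 were the lowest of the 5 for 3 of the 9 genes (Tsc22d3, Sgk1 and Ddit4), beside 7.82% of 13283 genes, as they were for Per1. They were the highest for 2 of the 9, beside 13.7% of genes, namely Fkbp5 at 28.8, 44.9, 63.7, 76.8 and 45.3 normalized CPM and Cdkn1a at 18.4, 12.0, 30.9, 39.7 and 16.5, with the SkM libraries in the order above. In the LVs Tsc22d3 was at 110 and 138 normalized CPM in WT mice 1 and 2, and at 84.3, 82.6 and 104 in E0del/+ mice 1, 2 and 3, where E0del/+ mice 1 and 2 were the lowest for 4 of the 9 (Tsc22d3, Zbtb16, Klf9 and Ddit4), beside 12.1% of genes, and the highest for 0, beside 11.9%. The part of glucocorticoid signalling in the Per1 values was not tested. In the test among mice, Tsc22d3 and Sgk1 were 2 of 9 at an unadjusted p under 0.05, beside 5.28% of all genes, with an edgeR p of 0.00806 for Tsc22d3 and 0 called. Of 8 temperature-responsive genes, 0 were called with genotype in either tissue and none had an unadjusted p under 0.05 among mice. Hspa8, Hsph1 and Hsp90aa1, the 3 of highest mean CPM, were at −0.02, −0.14 and −0.13 in the LVs and at −0.02, −0.19 and −0.08 in SkM. Of the immediate early genes, 0 of 7 tested in the LVs and 0 of 8 in SkM were called with genotype. Egr1 (0.83) and Ier2 (0.63), 2 of the 7, had an unadjusted p under 0.05 in the LVs, beside 4.20% of all genes. They were at 0.37 and 0.50 without the LV of WT mouse 2, with an edgeR p of 0.245 and 0.125. Nr4a1, Jun and Egr1, the 3 of highest mean CPM, were at −0.59, 0.25 and 0.83 in the LVs and at −0.29, 0.19 and 1.57 in SkM, and Nr4a1 was at −0.02 in the LVs without that library. Egr1 was at 3.43 in SkM without the SkM of WT mouse 1, with an edgeR p of 0.102. In the test among mice, Fos and Jun were 2 of 7 at an unadjusted p under 0.05, beside 5.28%. The medians with genotype were −0.17, −0.03 and 0.36 in the LVs and −0.01, −0.10 and 0.32 in SkM for the glucocorticoid, temperature and immediate early lists.

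The same lists differed between tissues in part. Over all genes, 28.5% were called higher in SkM and 31.4% higher in LV with TMM, and 12.1% and 56.5% on total counts. Of the 9 glucocorticoid-responsive genes, 4 were called higher in SkM and 2 higher in LV with TMM, and 3 and 3 on total counts. Sgk1 at 1.64, Fkbp5 at 1.62 and Tsc22d3 at 1.38 were called higher in SkM and Mt1 at −2.53 higher in LV, and none of these 4 changed sides on total counts. Ddit4, called higher in LV at −0.72, was at −0.74 without the LV of WT mouse 2, with an edgeR adjusted p of 0.0699. Of the 8 temperature-responsive genes, 1 was called higher in SkM and 3 higher in LV with TMM, and 0 and 4 on total counts. Hsp90aa1 at −1.04, Dnajb1 at −1.10 and Cirbp at −0.55 were called higher in LV under both scalings, and Hsph1 at 0.88 was called higher in SkM with TMM alone. Of the 8 immediate early genes, Nr4a1 at 2.31 was called higher in SkM and Ier2 at −1.06 higher in LV, and on total counts 1 and 3 were called. The medians between tissues were 0.48, 0.13 and −0.40 for these 3 lists with TMM, and −0.12, −0.50 and −1.01 on total counts, beside −0.04 and −0.65 over all genes tested.

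The genes most like Arntl and Dbp were named from 9113 genes by Pearson's r over the 10 libraries with the tissue mean removed, where 2 libraries come from each mouse. For Arntl, Ncbp1 (0.94), Morc2a (0.86), Ddx10 (0.85), Ddx18 (0.85) and Tprkb (0.85) had the highest r, and Cyp26b1 (−0.84), Hspa14 (−0.83), Poldip3 (−0.83), Gdap2 (−0.83) and Zcchc2 (−0.83) the lowest. For Dbp, Fcf1 (0.94), Fam109a (0.93), Mnt (0.91), Ighmbp2 (0.91) and Cox16 (0.91) had the highest r, and Trappc4 (−0.94), Rhou (−0.88), Xrn2 (−0.88), Topbp1 (−0.88) and Chd1 (−0.87) the lowest. None of these 20 genes is on the lists of clock genes. Without the LV of WT mouse 2, their r ran from 0.80 to 0.94 and from −0.91 to −0.78. At each end 1 of the 5 stayed among the first 5, Ncbp1 and Zcchc2 for Arntl and Fcf1 and Trappc4 for Dbp. Without both libraries that stood apart, their r ran from 0.76 to 0.95 and from −0.95 to −0.71. Then 2 (Ncbp1 and Morc2a) and 1 (Gdap2) of the 5 stayed for Arntl, and 0 and 1 (Trappc4) for Dbp. Among the 10 genes themselves, r was 0.61 for Arntl with Cry1, −0.53 for Arntl with Per2, −0.52 for Arntl with Per1, −0.34 for Arntl with Dbp and −0.68 for Dbp with Cry1. Over the 5 mice of the LVs and of SkM apart, it was 0.49 and 0.90 for Arntl with Cry1, −0.62 and −0.64 for Arntl with Per2, and −0.63 and −0.46 for Arntl with Per1. For Arntl with Dbp it was −0.57 and 0.14, and for Dbp with Cry1 −0.90 and −0.18, so these 2 rested on the LVs. The highest and the lowest r of all pairs were 0.89 for Per1 with Per2 (0.77 in the LVs, 0.97 in SkM) and −0.85 for Clock with Per2 (−0.63 and −0.89). Arntl with Nr1d1, which encodes a repressor of Arntl, was at 0.31 (−0.05 in the LVs, 0.86 in SkM). With the LV of WT mouse 2 left out, r over the other LVs was −0.05 for Arntl with Cry1 and −0.74 for Arntl with Per2. It was −0.76 for Arntl with Per1, −0.31 for Arntl with Dbp and −0.92 for Dbp with Cry1. Over LVs and SkM together without that library, r was 0.44 for Arntl with Cry1, −0.11 for Arntl with Dbp and −0.48 for Dbp with Cry1. Arntl with Per2 and with Per1 was then at −0.60 and −0.59. Without both libraries that stood apart, Arntl with Cry1 was at 0.21, Arntl with Dbp at −0.15 and Dbp with Cry1 at −0.71.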

How the data were processed

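Poly(A) RNA of LV and SkM was sequenced from unstranded libraries. The authors deposited 1 table per library that gives every gene its read count and its RPKM, beside the exons and their summed length. The submitters' processing notes name STAR, DESeq2 and the mm10 build, with versions not given in the sources used here. Deposited counts were tested with edgeR 4.0.16 quasi-likelihood in R 4.3.3, after filterByExpr and TMM, with Benjamini-Hochberg adjustment over all genes tested and a threshold of 0.05. Other steps used DESeq2 1.42.0, Python 3.11.15, numpy 2.4.6, pandas 2.3.3 and matplotlib 3.10.9. Deposited RPKM was used only to compare levels between genes. The count test was also run on simulated counts with a single spread for all genes and no mixed libraries, so its error on these data was not measured.

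The genotype was tested within each tissue, the tissues and the interaction over 4 groups, and mice in a model of tissue and mouse, split into differences within and between batches. LV and SkM of a mouse were paired by the labels' genotype and replicate number, and WT and E0del/+ mice by the batch tag. The correlation across genes of deviations from the group means between paired mice was 0.0595 and −0.150 in LV and 0.550 and 0.336 in SkM for batches 1 and 2, and between the tissues of 1 mouse it ran from −0.102 to 0.126.

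The 10 members, Ttn and the lists were named, with values for list genes past the threshold (at most the 6 with the lowest p) or otherwise the 3 most highly expressed, and the 5 genes at each end of the likeness ranking. The values of 1 gene of the lists are not reported here. Genes at an unadjusted p under 0.05, those called in a few alternatives and those not called without 1 library were named after their values were seen. The members and lists were chosen with earlier results of these data known. Alternatives were the DESeq2 size factors, total counts, DESeq2, filters (none, or at least 10 counts in every library), blocks, 1 fit over all libraries, and leaving out libraries or mice. Sex as a term, and leaving out both libraries that stood apart, were chosen after seeing the data. No pair of libraries agreed within sampling noise in a chi-square comparison of counts.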

Additional observations from a re-analysis of the deposited data

How the results depend on the processing

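Of the clock genes' values with an adjusted p, all 123 for genotype in the LVs, 130 in SkM, 122 for the interaction, 120 among mice, 117 within batches and 120 between batches kept their side of the threshold, and some changed sign. DESeq2 gave no adjusted p for 7 genes in the LVs and 8 in the interaction. For SkM against LV, 108 of 130 did, 19 lost the call and 3 gained it. On total counts Cry2 reversed to −0.17 and Nr1d2 to −0.23, by the shift of the scaling. Counts of called genes with genotype in the LVs were 12 by DESeq2, 5 with the replicate block and 0 to 578 with 1 library left out, and in SkM 1 with the replicate block and 0 to 0 with 1 library left out. For the interaction they were 17 by DESeq2 and 0 to 174 with 1 mouse left out. Among mice they were 151 by DESeq2, 2 with no filter (Fcgbp and Xist), 2 with both libraries that stood apart left out, and 0 to 5 with 1 mouse left out. Within batches they were 45 by DESeq2, 2 without both libraries and 0 to 3 with 1 mouse left out, and between batches 17 by DESeq2, 2 with no filter, 3 without both libraries and 0 to 3 with 1 mouse left out. For SkM against LV the count ran from 7203 to 7980 with 1 mouse left out. The median r of the same mouse ran from 0.26 to 0.60 with 1 mouse left out, and that of different mice from −0.34 to −0.11. The blocked fits changed no call of a clock gene, and the cause of the changes given above was not tested. With 2 and 3 mice in the groups, and 48 counts for Arntl in 1 LV, small differences may have been missed. No limit of detection is given here.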
